A study of Homo sapiens with 6 samples.

Results

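The genes described here are 32 genes of the ATF4 stress response and of the serine, one-carbon, proline and related amino acid enzymes that this response is known to govern. They were taken by gene symbol from a count table of 58735 genes, and each symbol matched 1 row. Levels come from RNA sequencing of 6 libraries of Panc-1, a human cell line of pancreatic cancer with an epithelial label and a WT genotype label. Per the labels, 3 libraries were made after 72 h with cancer-associated fibroblasts (the CAF group, headed CAF-NC in the table) and 3 after 72 h with CAF overexpressing PAI-1, which inhibits the activators of plasminogen (the CAF-PAI-1 group). How the overexpression was achieved and where the CAF came from are not given in the sources used here. Whether and how the CAF were kept apart from Panc-1 is not given either. The extraction text names another line, Cal27. The comparison asks how libraries labelled Panc-1 differ when the fibroblast partner overexpresses PAI-1. The labels call the replicates biological without naming separate cultures or days, and the spread that the p-values measure may be technical.

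ATF4 is a bZIP transcription factor at the hub of the integrated stress response. Kinases that sense unfolded proteins, scarce amino acids, haem lack or viral RNA phosphorylate the translation factor eIF2, which slows most protein synthesis while the ATF4 mRNA is translated more. ATF4 then pairs with C/EBP family proteins at C/EBP-ATF response elements and drives genes for amino acid synthesis and uptake, for feedback on the pathway and for secreted stress signals. Because ATF4 is controlled largely at translation, its mRNA is only a part of its activity, and protein was not measured here. In tumour cells the serine and proline branches are known for supplying one-carbon units, glutathione precursors and proline for matrix proteins.

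Library totals ranged from 13628508 to 16006880 counts. KRT8, KRT18 and KRT19, keratins of simple epithelium, were abundant. The 9 epithelial markers summed to 2033 to 2125 CPM (counts scaled to a common library total) in the CAF group and 2243 to 2518 CPM in the CAF-PAI-1 group. All 7 squamous markers were under 1 CPM in every library. The fibroblast list had 15 genes, of which 11 stayed below 1 CPM throughout, MFAP5 without a single count. COL1A1 and FBLN1 made up most of the list's sum, which was 298 to 328 CPM in the CAF group and 353 to 381 CPM in the CAF-PAI-1 group. COL1A1 rose by 0.47 on the log2 scale and FBLN1 had -0.08, and their part in the results below was not tested. Of 8 immune and endothelial markers 7 were under 1 CPM in every library. CAF-PAI-1 replicate 2 stood apart with 3.78% of counts from mitochondrial genes against 4.76% to 5.92% in the other 5, and the main counts are given with and without it.

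Nearly the whole set was higher with CAF that overexpress PAI-1. The members and the related lists below were chosen with earlier results of these data known. Their counts beside those of all genes are therefore a description and not independent evidence. Of the 32 members, all of which passed the filter on low counts, 27 rose and 1 fell by the edgeR quasi-likelihood test at a Benjamini-Hochberg adjusted p under 0.05, and 4 did not pass. Over all 14960 genes tested, 17.2% rose and 15.0% fell, which is 2571 and 2239 genes, or 1839 and 3182 with libraries scaled by size alone. The members' median log2 fold change was 0.50, or 0.43 under that scaling, beside -0.0015 for all genes. In 28 members every CAF-PAI-1 library lay above every CAF library, which was so for 22.3% of all genes, and 43.4% of all genes were separated in either direction. In SHMT1 every CAF-PAI-1 library lay below. Rises of at least 1.5-fold were seen in 12 members and in 3.88% of all genes. Without CAF-PAI-1 replicate 2, 25 members rose and 1 fell. In bulk RNA, more transcript in each cell and more cells of a given state cannot be told apart.

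**Figure D1:**
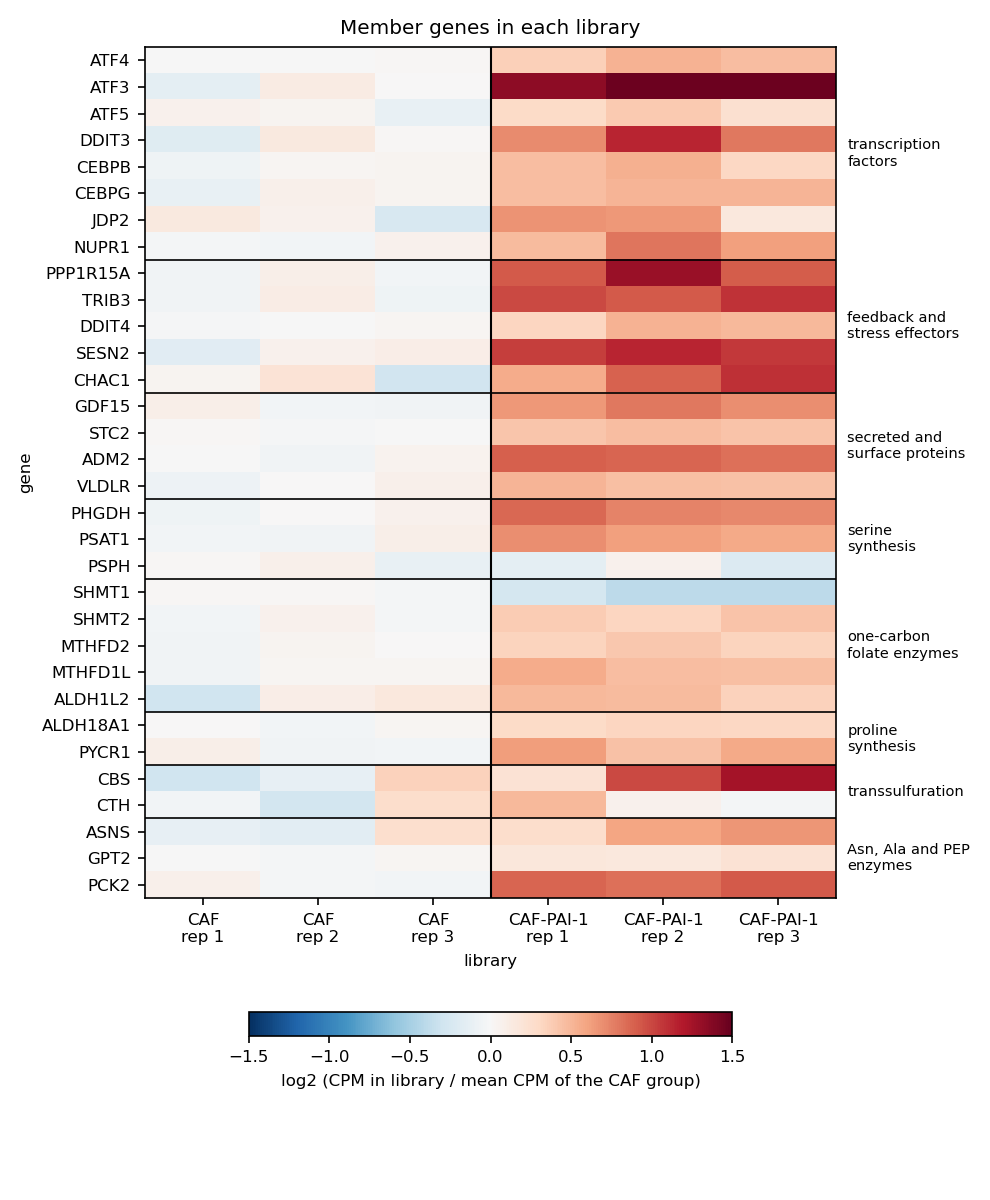
Level of each of the 32 members in each of the 6 libraries as the log2 ratio of its TMM-scaled CPM to the mean of the CAF group, in rows grouped by role. The 3 CAF-PAI-1 columns are red for nearly every gene, while SHMT1 is blue in all 3 and PSPH, CBS and CTH are uneven.

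The regulators and stress effectors had a higher median than the enzymes. All 17 members that are transcription factors, effectors, or secreted or surface proteins rose, with a median log2 fold change of 0.64. Of the 15 enzymes of amino acid and one-carbon metabolism, 10 rose and 1 fell, with a median of 0.44. The difference between these medians was not tested.

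**Figure D2:**
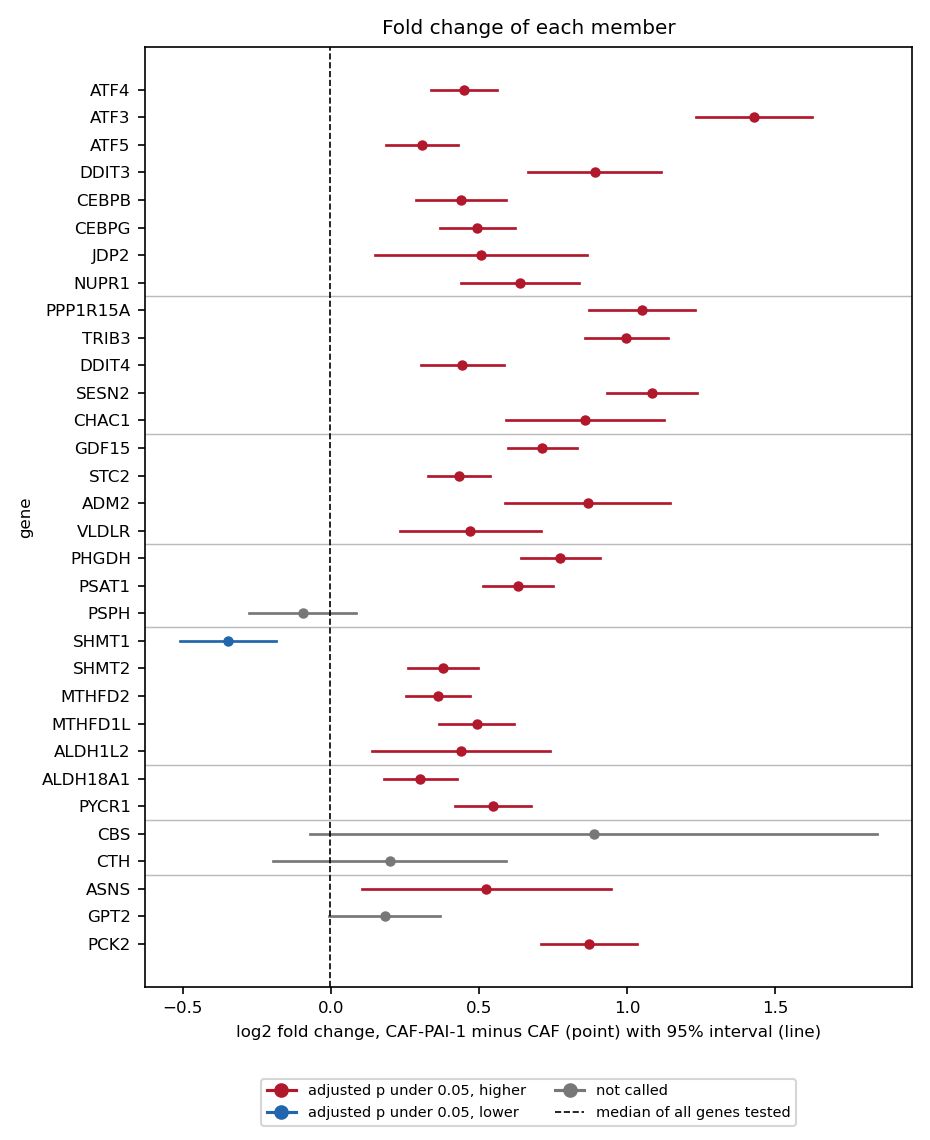
Log2 fold change of each member (point) with its 95% interval (line), CAF-PAI-1 minus CAF, in the same order of roles, with the dashed line at the median of all genes tested. ATF3 lies farthest to the right at 1.43, SHMT1 is the only member whose interval lies below 0, and the interval of CBS is the widest.

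Promoter sequences were examined because C/EBP-ATF elements are the sites through which ATF4 acts. RefSeq promoter windows (GRCh38.p14, 250 bases before to 50 after a start of a gene) were matched by symbol for 26 of the 32 members. NUPR1, PYCR1, PSPH, SHMT2, GPT2 and ALDH1L2 had no entry. There were 34943 windows, so that a gene can have more than 1, and a match in any of them was counted. The ATF3 match lies before the upstream end of its annotated span, 212565334 to 212620777. Which starts are used in these cells was not examined. The letters TGATGNAA, the core of the element, were searched on both strands and found in 6 of the 26 members (23.1%) and in 4.46% of the 27305 genes in the table. A match is a description of the letters, and binding was not measured. The members were chosen as genes of the ATF4 response, so their higher share cannot be read as a result of these data. The matches stand in capitals below, 5′ to 3′ on the gene's strand. ATF3, CEBPG and JDP2 are shown with their flanks, and CHAC1, MTHFD1L and ASNS, whose matches lie inside an exon annotated in GENCODE 29, with 30 bases.
ATF3 (plus strand, chr1:212565186-212565253): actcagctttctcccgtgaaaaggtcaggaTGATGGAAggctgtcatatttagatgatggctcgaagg
CEBPG (plus strand, chr19:33374041-33374108): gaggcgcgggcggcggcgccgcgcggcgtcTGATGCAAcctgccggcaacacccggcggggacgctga
JDP2 (plus strand, chr14:75427976-75428021): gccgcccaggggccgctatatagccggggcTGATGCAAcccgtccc
CHAC1 (plus strand, chr15:40953251-40953280, match on the opposite strand): ctcccctgccgTTGCATCActcctgccagg
MTHFD1L (plus strand, chr6:150866346-150866375): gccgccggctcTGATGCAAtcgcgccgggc
ASNS (minus strand, chr7:97872458-97872487): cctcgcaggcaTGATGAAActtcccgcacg
The 6 genes with a match had log2 fold changes between 0.49 and 1.43, and members whose windows hold no match, such as SESN2 and PHGDH, rose as well. CEBPG, JDP2 and MTHFD1L share the 8 letters TGATGCAA, which CHAC1 carries on the other strand. A cAMP response element, TGACGTCA, which other ATF and CREB dimers bind and which shares no match with the first motif here, was found in 1 of the 26 members and in 2.25% of all genes. That member is PPP1R15A, with the element in capitals.
PPP1R15A (plus strand, chr19:48872333-48872391): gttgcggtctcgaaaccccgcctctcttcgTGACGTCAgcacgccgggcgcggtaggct

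Among the transcription factors, all 8 members rose, and 7 did with library size alone or DESeq2. ATF4 itself, a plus-strand gene on chromosome 22 (from 39519695 to 39522685, GRCh38), was at 207, 208 and 211 TMM-scaled CPM (TMM corrects for library composition) in CAF replicates 1 to 3 and at 267, 299.9 and 288 in the CAF-PAI-1 replicates. The groups did not overlap, and ATF4 rose by 0.45 (log2; SE 0.055, edgeR adjusted p = 5.36e-08), a 1.37-fold rise. ATF3, a stress-induced bZIP factor that can repress its own targets, was at 12.7, 15.2 and 14.1 CPM in the CAF group and at 35.5, 38.7 and 38.7 CPM in the CAF-PAI-1 group. It had the largest fold change of the set, 1.43 (SE 0.096), with the CAF-PAI-1 libraries close together. DDIT3 encodes CHOP, a C/EBP family factor linked to cell death under prolonged stress. Its level was 14.99, 18.8 and 17.1 CPM against 27.8, 37.3 and 29.3 CPM, highest in CAF-PAI-1 replicate 2, and it rose by 0.89 on the log2 scale (SE 0.11, edgeR adjusted p = 8.32e-08).

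The other factors rose by between 0.31 and 0.64 on the log2 scale. CEBPG, a small C/EBP protein that dimerises with ATF4, went from 86.8 ± 5.78 to 122 ± 2.23 CPM (SD, n = 3 each), a log2 fold change of 0.49. CEBPB, a C/EBP activator of inflammatory and stress genes, went from 43.9 ± 1.68 to 59.6 ± 4.69 CPM (0.44). ATF5, a relative of ATF4 that is translated under the same conditions, had the smallest rise of the factors, from 129 ± 8.17 to 160.5 ± 8.92 CPM (0.31, SE 0.060). NUPR1, a small chromatin protein induced by stress and first described in the pancreas, was at 18.9, 18.8 and 20.1 CPM against 26.8, 33.7 and 29.4 CPM and rose by 0.64. Its groups did not overlap. JDP2, a bZIP repressor of the AP-1 family, was the least abundant factor, at 5.83, 5.48 and 4.46 CPM against 8.39, 8.28 and 5.88 CPM. Its groups are separated by a narrow gap, since CAF-PAI-1 replicate 3 lies next to CAF replicate 1. JDP2 rose by 0.51 (SE 0.17, adjusted p = 0.0246) and lost the call with library size alone, with DESeq2 and when CAF replicate 3 or CAF-PAI-1 replicate 1 or 2 was left out (adjusted p from 0.0528 to 0.111).

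Counts of some factors may hold reads of neighbours, because no source used here says whether the counting used strand. DDIT3 shares 355 exonic bases with MARS on the opposite strand, and MARS, the methionyl-tRNA synthetase gene, rose as well, from 268 ± 2.21 to 386 ± 9.91 CPM. ATF5 shares 626 exonic bases with NUP62, which had a log2 fold change of -0.10 and did not pass (edgeR adjusted p = 0.301). The part of such reads in the DDIT3 and ATF5 values was not tested.

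The feedback and effector genes had the highest median of the roles with more than 2 members, at 1.00, and all 5 rose. PPP1R15A encodes GADD34, the subunit that directs a phosphatase to eIF2 and so ends the response. It was at 48.9, 54.0 and 49.6 CPM in the CAF group and 96.1, 125 and 95.2 CPM in the CAF-PAI-1 group, highest in replicate 2, and rose by 1.05 (log2 scale; SE 0.087, edgeR adjusted p = 2.17e-09). SESN2, a sestrin that senses leucine and restrains the growth kinase complex mTORC1, was at 32.5, 38.1 and 39.1 CPM against 74.9, 81.0 and 76.5 CPM. This is a 2.12-fold rise (log2 fold change 1.09, SE 0.075), with the CAF-PAI-1 libraries all at about the same level. TRIB3, a pseudokinase that binds ATF4 and limits it, was at 48.4, 54.2 and 47.8 CPM against 99.5, 95.01 and 106 CPM. CHAC1, an enzyme that degrades glutathione, was more uneven, at 13.0, 14.6 and 10.4 CPM against 18.5, 23.4 and 27.0 CPM. Its groups did not overlap, and it rose by 0.86 (SE 0.13, adjusted p = 6.69e-06). DDIT4, also called REDD1 and an inhibitor of mTORC1, rose least, from 53.0 ± 0.884 to 72.1 ± 5.31 CPM (0.44).

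All 4 genes for secreted or surface proteins rose. GDF15, a circulating stress cytokine that reduces appetite through a brainstem receptor, was at 176, 160.3 and 159 CPM in the CAF group and 259, 286 and 268 CPM in the CAF-PAI-1 group, a rise of 0.71 on the log2 scale (SE 0.057, edgeR adjusted p = 6.19e-12). The groups were far apart next to their spread. STC2, a secreted glycoprotein that inhibits the protease PAPP-A, had the most counts of the set and went from 394 ± 5.98 to 532 ± 8.94 CPM (0.43, SE 0.051). ADM2, a peptide hormone of the calcitonin family, was low at 6.55, 6.36 and 6.83 CPM and reached 12.3, 12.1 and 11.7 CPM (0.87, SE 0.14). VLDLR, a lipoprotein receptor, rose by 0.47, from 11.2 ± 0.588 to 15.5 ± 0.381 CPM.

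In serine synthesis the first steps rose and the last did not. PHGDH, the dehydrogenase that commits a glycolytic intermediate to serine (from 119648411 to 119744226 of chromosome 1, plus strand), was at 55.4, 58.1 and 60.6 CPM in the CAF group and 105, 96.9 and 95.3 CPM in the CAF-PAI-1 group. It rose 1.71-fold (log2 fold change 0.77, SE 0.066, edgeR adjusted p = 2.29e-11). PSAT1, the aminotransferase of the next step, was at 127, 126 and 138 CPM against 211, 200.5 and 194 CPM and rose 1.55-fold (0.63, SE 0.057). Neither gene's groups overlapped. PSPH, the phosphatase that releases serine, was at 31.98, 33.4 and 29.3 CPM against 28.6, 32.9 and 27.4 CPM, with overlapping groups. Its log2 fold change was -0.10, with a 95% interval from -0.28 to 0.09, so that a rise as large as that of PHGDH or PSAT1 lies outside the interval. PSPH has a pseudogene copy, PSPHP1, that fell from 5.05 ± 0.61 to 2.94 ± 0.87 CPM, and both rows summed gave a log2 fold change of -0.17 (edgeR adjusted p = 0.127). Within each library the ratio of PHGDH to PSPH was 1.73, 1.74 and 2.07 in the CAF group and 3.69, 2.94 and 3.48 in the CAF-PAI-1 group (exact two-sided permutation p = 0.1, the smallest that 3 against 3 can give). The ratio of PSAT1 to PSPH went from 4.15 ± 0.50 to 6.86 ± 0.68.

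**Figure D3:**
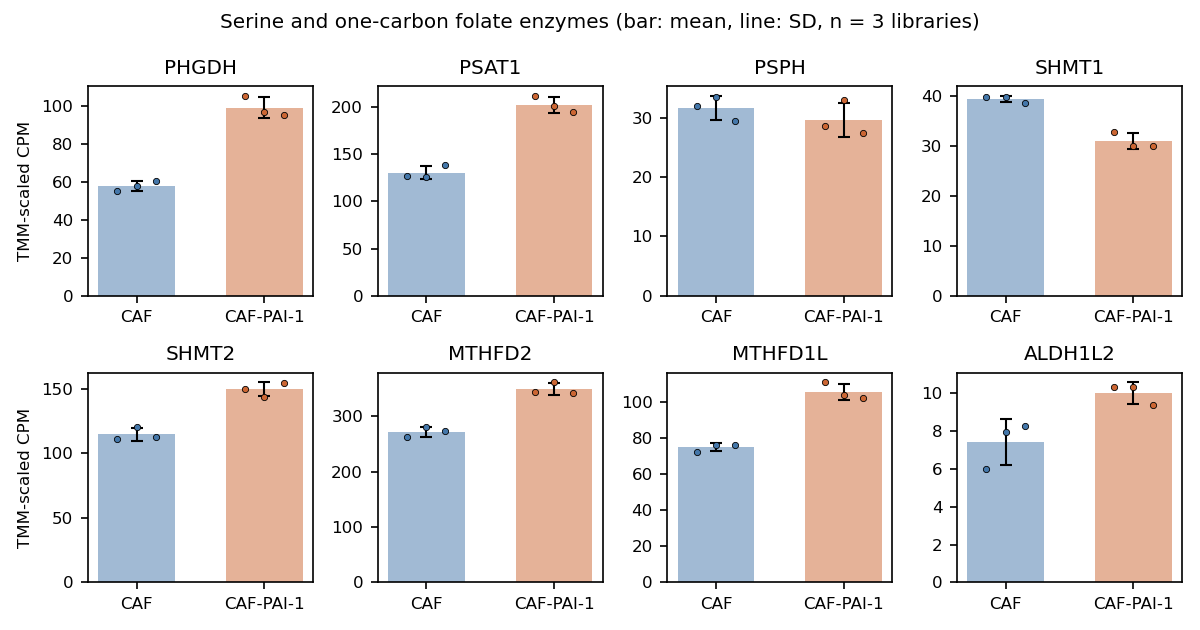
TMM-scaled CPM of the serine and one-carbon folate enzymes in the CAF and CAF-PAI-1 groups, with a bar at the mean, a line for the SD and 1 point per library, n = 3. PHGDH, PSAT1, SHMT2, MTHFD2, MTHFD1L and ALDH1L2 have all CAF-PAI-1 points above the CAF points, SHMT1 has them below, and PSPH overlaps.

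Of the 5 one-carbon enzymes in the set 4 rose and 1 fell. SHMT2 is the mitochondrial and SHMT1 the cytosolic serine hydroxymethyltransferase, and both split serine into glycine and a folate-bound carbon. SHMT2 was at 111, 121 and 113 CPM in the CAF group and 150.01, 144 and 155 CPM in the CAF-PAI-1 group (0.38, SE 0.058). SHMT1 (from 18327860 to 18363563 of chromosome 17, minus strand) was at 39.8, 39.8 and 38.7 CPM against 32.8, 30.1 and 30.1 CPM. It is the 1 member that fell, at -0.35 on the log2 scale (SE 0.080, edgeR adjusted p = 0.00091), and its groups did not overlap. The ratio of SHMT2 to SHMT1 within a library, which does not depend on scaling, was 2.80, 3.03 and 2.92 in the CAF group and 4.57, 4.78 and 5.14 in the CAF-PAI-1 group (exact two-sided permutation p = 0.1). SHMT1 shares 196 exonic bases with SMCR8 on the opposite strand, which fell by 0.18 on the log2 scale, and the part of shared reads was not tested.

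The members MTHFD2, MTHFD1L and ALDH1L2, all mitochondrial folate enzymes, rose, while MTHFD2L, a mitochondrial relative of MTHFD2 outside the set, did not pass (0.16, edgeR adjusted p = 0.539). MTHFD2, a dehydrogenase and cyclohydrolase, had the largest counts of the enzymes, at 262, 280.0 and 273 CPM against 344, 361 and 343 CPM (0.36, SE 0.053). MTHFD1L, which makes formate for export to the cytosol, went from 75.2 ± 2.25 to 106 ± 4.63 CPM (0.49). ALDH1L2, which oxidises formyl-folate and yields NADPH, was at 6.01, 7.94 and 8.27 CPM against 10.4, 10.3 and 9.37 CPM, with CAF replicate 1 the lowest. It rose by 0.44 (SE 0.15, adjusted p = 0.021), but without CAF replicate 1 the log2 fold change was 0.31 (adjusted p = 0.151), and the call was also lost without CAF-PAI-1 replicate 1 and, at 0.0502, with library size alone. MTHFD1, the cytosolic counterpart of MTHFD2 and MTHFD1L, had a log2 fold change of -0.13 and did not pass, so that the ratio of MTHFD2 to MTHFD1 went from 2.40 ± 0.028 to 3.39 ± 0.087. The 5 ratios computed, of which 4 are given here, each gave an exact permutation p of 0.1, and 0.1 after Benjamini-Hochberg adjustment. They combine levels of genes that were also tested singly, so these p-values are not separate evidence.

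Both proline enzymes rose. ALDH18A1, which turns glutamate into the proline precursor, was at 82.1, 79.8 and 83.9 CPM in the CAF group and 99.6, 102 and 101 CPM in the CAF-PAI-1 group with no overlap (0.30, SE 0.060, edgeR adjusted p = 0.000175). PYCR1, the mitochondrial reductase of the last step, was at 102, 92.5 and 93.6 CPM against 149, 129.9 and 143 CPM (0.55, SE 0.063). Neither gene's groups overlapped. A paralog of PYCR1, PYCR3, rose by 0.42.

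The transsulfuration genes, which carry sulfur from homocysteine to cysteine, did not pass. CBS, the first enzyme, was at 20.03, 22.6 and 31.4 CPM in the CAF group and 28.6, 48.8 and 58.4 CPM in the CAF-PAI-1 group. CAF-PAI-1 replicate 1 lies below CAF replicate 3, and the log2 fold change of 0.89 has a 95% interval from -0.07 to 1.84 (edgeR adjusted p = 0.143). CBS was called by DESeq2 (adjusted p = 0.0491), limma-voom (0.000427), edgeR without robust estimation (9.91e-05), with the replicate block (1.87e-09) and without CAF-PAI-1 replicate 1 (0.00137). CBS has a near-identical copy, CBSL, and the 2 rows divided their counts unevenly. CBSL held 207, 15 and 231 counts in the CAF group and 183, 19 and 36 in the CAF-PAI-1 group, while CBS held 330, 358 and 436 against 423, 672 and 903. Summed, they gave 32.6, 23.5 and 48.0 against 41.0, 50.2 and 60.7 CPM, with overlapping groups and a log2 fold change of 0.56 (95% interval -0.32 to 1.43, edgeR adjusted p = 0.285). CTH, the lyase that releases cysteine, was at 4.61, 3.91 and 5.68 CPM against 6.63, 4.94 and 4.65 CPM, with overlapping groups and a log2 fold change of 0.20 (95% interval -0.19 to 0.59).

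**Figure D4:**
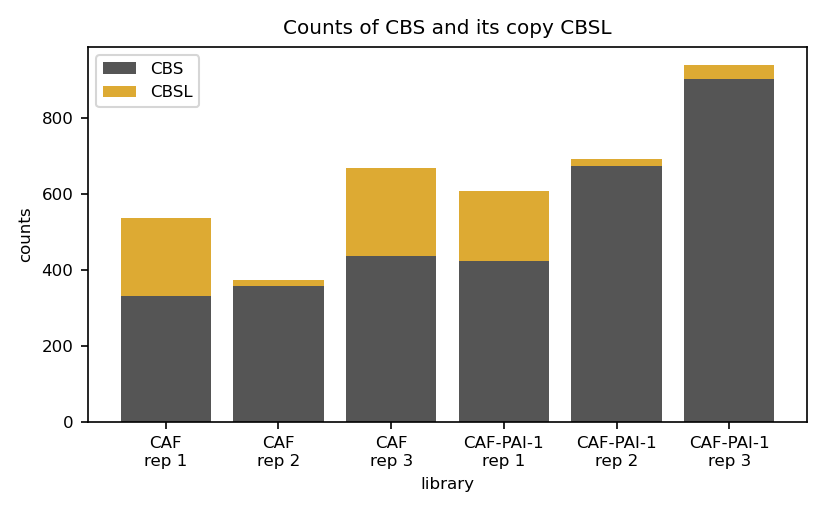
Deposited counts of CBS (grey) and of its copy CBSL (yellow) stacked for each of the 6 libraries. CBSL holds 183 to 231 counts in CAF replicates 1 and 3 and CAF-PAI-1 replicate 1, and 15 to 36 in the other 3 libraries.

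Of the last 3 enzymes, PCK2 moved most. PCK2, the mitochondrial phosphoenolpyruvate carboxykinase, was at 27.1, 25.1 and 24.9 CPM in the CAF group and 47.1, 45.6 and 48.4 CPM in the CAF-PAI-1 group, a 1.83-fold rise (0.87, SE 0.080, edgeR adjusted p = 1.21e-10), and its gluconeogenic paralog PCK1 had no count. ASNS, the asparagine synthetase and a textbook ATF4 target, had few counts in this line, at 3.10, 3.02 and 4.03 CPM against 4.06, 5.08 and 5.37 CPM. The gap between its groups is small, and the log2 fold change of 0.52 (SE 0.21) passed by little, with an adjusted p of 0.0499. ASNS lost the call under 12 of the 15 other settings, where its adjusted p reached 0.180. A transcript named AC079781.5 covers 1985 exonic bases of ASNS on the same strand but held at most 6 counts in a library. GPT2, the mitochondrial alanine aminotransferase, was at 22.0, 21.7 and 22.5 CPM against 24.8, 24.7 and 25.5 CPM. Its groups did not overlap, yet it did not pass (0.18, 95% interval -0.0051 to 0.37, adjusted p = 0.133).

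Levels differed widely between members when set per length, as CPM per kilobase of the principal transcript in GENCODE 29. In the CAF group GDF15 was highest at 138, followed by ATF4 at 103, STC2 at 73.6, ATF5 at 62.6, MTHFD2 at 60.9 and PSAT1 at 59.6 CPM per kilobase. The 3 libraries of GDF15, ATF4 and STC2 did not overlap those of the next gene, whereas ATF5, MTHFD2 and PSAT1 overlapped. PYCR1 at 50.5 and SHMT2 at 45.3 came next, each apart from its neighbours. From CEBPB at 22.5 down to SHMT1 at 16.0 every neighbouring pair overlapped, PHGDH, PPP1R15A, CEBPG, MTHFD1L, TRIB3 and DDIT3 lying between. The lowest were VLDLR at 1.23, ALDH1L2 at 0.981 and JDP2 at 0.973, with ASNS at 1.44 just above them. GDF15 was 141-fold above JDP2. In all, 16 of the 31 neighbouring pairs overlapped. With CAF-PAI-1 the order changed little at the top, where PSAT1 at 92.3 CPM per kilobase stood above MTHFD2 at 78.3 and ATF5 at 77.6. These values depend on the transcript taken, which for NUPR1 is 5491 bases long.

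**Figure D5:**
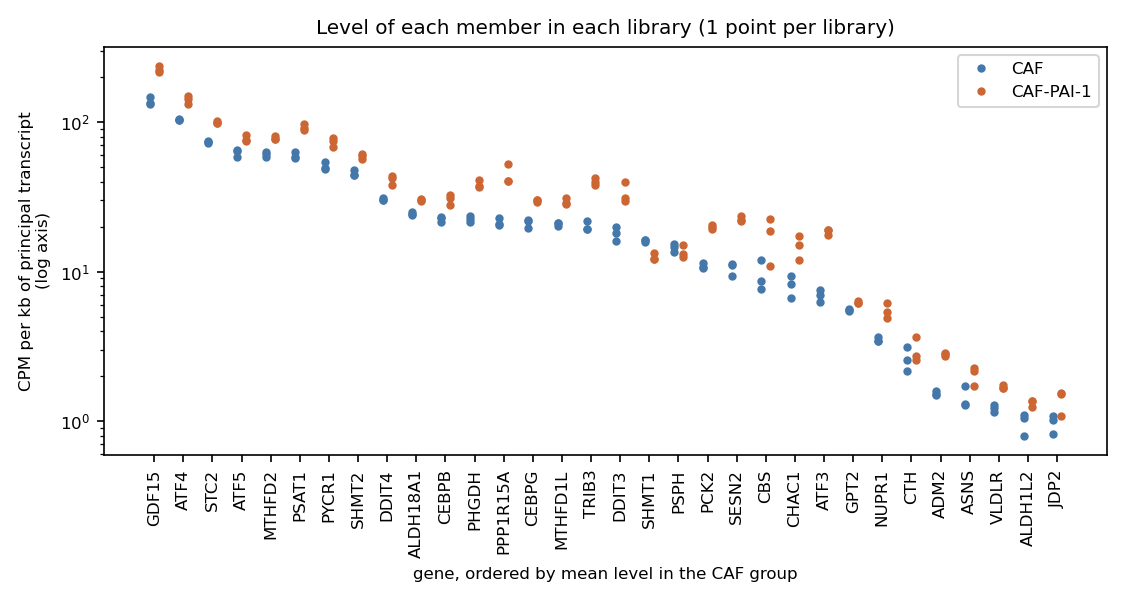
CPM per kilobase of principal transcript (log axis) of each member, ordered by its mean in the CAF group, with 1 point per library. Orange CAF-PAI-1 points lie above the blue CAF points for all but SHMT1, PSPH, CBS and CTH, and the levels run from near 1 for JDP2 and ALDH1L2 to above 130 for GDF15.

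Genes upstream of ATF4 were called in both directions. In a list of 16 genes of eIF2 kinases and eIF2 control, 6 rose and 2 fell, or 4 and 2 with library size alone, and the median log2 fold change was 0.13. Over all genes 32.2% were called and 17.2% rose. Of the 4 kinases, EIF2AK4, also called GCN2 and a sensor of uncharged tRNA, rose by 0.24, from 57.2 ± 3.63 to 67.5 ± 2.64 CPM, a call that was lost with library size alone (0.17, edgeR adjusted p = 0.058). EIF2AK1 and EIF2AK2, the haem and double-stranded RNA sensors, fell by 0.26 and 0.24. EIF2AK3, also called PERK and the sensor in the endoplasmic reticulum, had 0.15 and did not pass (adjusted p = 0.224). Among the others, EIF2B2, a subunit of the eIF2 exchange factor, rose by 0.41, DNAJC3, an inhibitor of PERK, by 0.36 and EIF2S1, the phosphorylated subunit of eIF2, by 0.34. Kinase activity and eIF2 phosphorylation were not measured.

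Other known ATF4 targets and partners moved with the set for the most part. Of 34 tested, 25 rose and 6 fell, with a median log2 fold change of 0.49. The shares of all genes were 17.2% higher and 15.0% lower. FOSL1, an AP-1 subunit, rose by 1.29, TRIB1, a paralog of TRIB3, by 1.07 and HERPUD1, a protein of ER-associated degradation, by 0.83. All 8 tRNA synthetase genes in the list rose, from AARS at 0.20 to GARS at 0.79, but AARS did not pass with library size alone. KLHL24 fell by 1.66, LURAP1L by 0.61 and SLC38A2, a neutral amino acid transporter induced by amino acid lack, by 0.56, so that the direction was not shared by every target. SLC38A2 went from 759.8 ± 34.4 to 517 ± 24.4 CPM. FGF21, a secreted target, was too low to test. In the list of the ER branch of the unfolded protein response, 12 of 18 rose and 1 fell (ATF6B, -0.26), with a median of 0.27, led by XBP1 at 0.91, HERPUD1 at 0.83 and HSPA5, the chaperone BiP, at 0.63.

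Metabolic neighbours of the members held calls in both directions by edgeR. Over all genes tested 17.2% rose and 15.0% fell. Of 21 tested genes of the folate and methionine cycle 4 rose and 5 fell, with a median log2 fold change of 0.04, or -0.03 with library size alone. MTRR, which reactivates methionine synthase, rose by 0.38, MAT2A, which makes S-adenosylmethionine, by 0.31 and GART, a purine synthesis enzyme, by 0.25. MAT2B, a regulatory partner of MAT2A, fell by 0.35 and GGH by 0.31. TYMS, the thymidylate synthase, also fell, by 0.28. Of 17 tested genes of proline and glutamate metabolism 6 rose and 1 fell, with ODC1, which starts polyamine synthesis, at 0.65 and PYCR3 at 0.42, while GOT2 had -0.19. Among 14 genes of glutathione and cysteine handling 5 rose and 1 fell, MPST at -0.26. SLC7A11, the cystine importer, had 0.69, and GCLM and GCLC, the subunits of the enzyme that starts glutathione synthesis, had 0.32 and 0.31. In the 11 tested regulators of mitochondrial stress 5 rose and 1 fell. HSPA9 rose by 0.45, LONP1 by 0.26 and HSPD1 by 0.23, DELE1, which relays mitochondrial stress to the eIF2 kinase EIF2AK1, fell by 0.16 (edgeR adjusted p = 0.0479), and OMA1, the protease that cleaves it, had 0.02. Neither DELE1 nor MPST was called lower by DESeq2. The median of the mitochondrial list was 0.05, or -0.02 with library size alone.

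In a list of mTORC1 and amino acid sensing genes, which leaves out SESN2 and DDIT4, the calls were lower ones. Of 16 tested 7 fell, 9 were not called and none rose by edgeR, where 15.0% of all genes fell. The counts of lower and higher genes were 9 and none at an unadjusted p under 0.05, 6 and none by DESeq2, 7 and none by limma-voom and 11 and none with library size alone. Of all 14960 genes, 1924 fell by DESeq2, 2203 by limma-voom and 3182 with library size alone. At an unadjusted edgeR p under 0.05, 6178 of all genes passed in either direction. The median log2 fold change was -0.26. CASTOR2, a relative of the arginine sensor CASTOR1, fell from 5.86 ± 0.717 to 2.23 ± 0.199 CPM (-1.40, SE 0.21), DEPDC5, a subunit of the GATOR1 inhibitor, by 0.51 and DEPTOR, an mTOR inhibitor, by 0.40. MTOR itself fell by 0.28, and TSC1 and TSC2, which restrain mTORC1, by 0.39 and 0.27.

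Paralogs of the members, a list chosen after the values were seen, did not follow their relatives throughout. Of 14 tested 6 rose and 2 fell, while 17.2% of all genes rose and 15.0% fell. With library size alone 4 paralogs fell, and 3182 of all 14960 genes did. STC1 rose from 16.8 ± 1.85 to 41.6 ± 1.46 CPM (1.31 on the log2 scale, SE 0.092), beside 0.43 for STC2. ADM, an adrenomedullin peptide hormone, rose by 0.71, beside 0.87 for ADM2. PPP1R15B, which forms the constitutive eIF2 phosphatase, rose by 0.34, against 1.05 for PPP1R15A. TRIB2 fell by 0.31 while TRIB3 rose. SESN1 (-0.29), CHAC2 (0.08) and MTHFD2L (0.16) did not pass the test. The differences between paralogs were tested only for the ratios given above.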

How the data were processed

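Poly(A)-selected RNA was sequenced from 6 libraries, 3 per group. The authors deposited whole-number counts per gene. BWA, Bowtie2, RSEM and hg19 appear in the submitters' processing notes, with no versions or roles; the counting step, the use of strand and the sharing of reads between copies are not given in the sources used here. All 58735 gene identifiers are in GENCODE 29 (GRCh38), from which positions and lengths were taken to identify genes. Read depth was 13628508 to 16006880 counts per library, so that 3 counts correspond to 0.187 to 0.220 CPM. Counting error is only a part of the spread that the tests use.

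The fit used edgeR 4.0.16 (R 4.3.3) for CAF-PAI-1 minus CAF, with no covariate: filterByExpr (minimum count 10, minimum total 15), TMM scaling, robust glmQLFit and glmQLFTest, with Benjamini-Hochberg adjustment over all 14960 genes tested and a threshold of 0.05. "Rose" and "fell" are used of genes past it. SE was computed from the fold change and the F statistic. SDs of levels (TMM-scaled CPM) are over 3 libraries. The test was also run on simulated counts with far fewer changed genes than were called in the data. That run does not measure the test's error in these data. Other settings tried were DESeq2 1.42.0, limma-voom (limma 3.58.1), a fit without robust estimation, RLE or no composition scaling, no filter or a mean of at least 1 CPM, a replicate block, and leaving out single libraries. Summing the rows of CBS and CBSL and of PSPH and PSPHP1 was added after seeing the data. The within-library ratios were not among the planned tests.

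The members and the lists of related and marker genes were chosen with earlier results of these data known. All members are named, and of each related list up to 3 genes per direction with the largest change among those past the threshold. The eIF2 kinases and genes of lists with at most 12 tested members could also be named. MTOR, TSC1, TSC2, TYMS, MTHFD1, AARS, GARS, FGF21, the paralogs, and the copies and overlapping neighbours of members were named after their values were seen. Some genes that these rules would name are not reported here.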

Additional observations from a re-analysis of the deposited data

How the results depend on the processing

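Under 14 alternatives and the summing of copies, which was added after seeing the data, the number of members that rose stayed between 24 (library size alone) and 27, and 1 member, SHMT1, fell under each. The median log2 fold change of the members lay between 0.43 and 0.52. Leaving out 1 library at a time gave 25 or 26 members higher and 1 lower. Of the 27 genes that rose, 24 kept their call under every setting. The exceptions were ASNS (lost under 12 of 15), JDP2 (5) and ALDH1L2 (3), and CBS gained a call under 5. No member changed direction past the threshold. Over all genes, library size alone gave 1839 higher and 3182 lower, against 2571 and 2239. Same-numbered libraries of the groups deviated together with correlations of only 0.0023, 0.012 and 0.0063, though 5 of 6 libraries correlated best with their own number. With 3 libraries per group these values cannot settle whether the numbers pair the libraries. With the replicate number as a block, 27 members rose and 1 fell with a median of 0.50, and 2708 genes rose and 2361 fell in all. At this depth ASNS, CTH and JDP2, under 10 CPM in every library, had SEs of 0.17 to 0.21.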
